A study of Drosophila melanogaster with 3 samples.

Results

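The genes of oxidative phosphorylation were examined as possible neighbours of BtbVII binding in the Drosophila embryo. They were taken as all protein-coding genes of the gene models whose name starts with ND-, UQCR-, COX, ATPsyn or Sdh, which gave 88 of the 13968 protein-coding genes on the chromosome arms. Of the 88, 63 were subunit genes, 24 were paralogs marked by a trailing L in the name (such as ND-51L1 beside ND-51) and 1, Sdhaf3, was an assembly factor of complex II. By complex there were 40 genes for complex I, 8 for complex II, 9 for complex III, 16 for complex IV and 15 for complex V. A gene had a candidate summit when the highest point of any region in the pooled list lay within 1000 bp of one of its annotated transcription start sites (TSSs), and a strong summit when that region was also in the set passing the authors' reproducibility threshold.

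Oxidative phosphorylation takes place in the inner mitochondrial membrane. Complexes I and II pass electrons from NADH and succinate to ubiquinone, complex III passes them on to cytochrome c, complex IV reduces oxygen, and complex V uses the resulting proton gradient to make ATP. Most subunits are encoded in the nucleus and imported, and many of these genes in Drosophila have duplicates that are expressed mainly in testis. Expression was not measured here, so the L paralogs are named by their symbols alone.

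The embryos came from a transgenic line in which BtbVII, a protein with a BTB domain, carries GFP at its C terminus, and the tagged protein was immunoprecipitated with an antibody against GFP. Male and female embryos, pooled whole at 0 to 24 h of age, gave 3 biological replicates of 1 group with no control group, so the results are counts, shares and ranks within the deposited lists. Binding in a few cells and weaker binding in many cannot be told apart in whole embryos.

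Library depth is unknown, since the lists carry no read counts. Coordinates are on the dm6 build and count from 1. The pooled list and each replicate list held 30000 regions, and the thresholded set held 5219, which were the 5219 pooled regions of highest signal, down to a signal of 172. Signal is the value that the authors' peak caller gave a region, and ranks are by signal, with 1 the highest. At the tagged protein's own locus, BtbVII had a summit 105 bp from a TSS that ranked 37 of the pooled list. The line is transgenic for tagged BtbVII, and whether the transgene contributes to the signal there was not tested.

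Stretches of 151 bases centred on the summit are given for 7 genes, because they span the range of the results: the member of highest signal (ND-ASHI), a core complex I gene in a shared promoter (ND-51), 2 strong complex IV genes whose replicates differed (COX5B and COX7B), the single strong paralog (COX7AL2), the complex II member of highest signal (SdhC) and the member just below the strong minimum (ND-MNLL). They were read from the Release 6 genome (the RefSeq copy of the dm6 build) in the sense of the named gene, 5′ to 3′. Capitals mark matches to the motif words that were searched: TATAAA in ND-ASHI, GGTCACAC in COX7B, TATCGATA in SdhC and TTACATAA in ND-MNLL. ND-51, COX5B and COX7AL2 held none of the searched words in these stretches. The windows lie at chrX:6679299-6679449 on the minus strand (ND-ASHI), chr2L:6062803-6062953 minus (ND-51), chr2L:6557532-6557682 plus (COX5B), chr3L:17425351-17425501 plus (COX7B), chr2L:2193604-2193754 minus (COX7AL2), chr3R:11210120-11210270 minus (SdhC) and chrX:7893806-7893956 minus (ND-MNLL).
ND-ASHI: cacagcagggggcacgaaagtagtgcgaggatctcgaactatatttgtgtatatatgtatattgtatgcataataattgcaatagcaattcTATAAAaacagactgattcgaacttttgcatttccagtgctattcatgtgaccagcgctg
ND-51: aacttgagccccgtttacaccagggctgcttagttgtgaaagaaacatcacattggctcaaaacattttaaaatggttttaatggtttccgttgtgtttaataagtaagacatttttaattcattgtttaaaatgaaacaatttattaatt
COX5B: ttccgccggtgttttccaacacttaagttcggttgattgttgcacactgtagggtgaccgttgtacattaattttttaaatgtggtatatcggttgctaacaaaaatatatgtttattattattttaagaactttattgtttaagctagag
COX7B: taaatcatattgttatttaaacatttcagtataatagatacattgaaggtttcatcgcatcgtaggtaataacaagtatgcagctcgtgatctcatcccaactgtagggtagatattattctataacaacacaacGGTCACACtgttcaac
COX7AL2: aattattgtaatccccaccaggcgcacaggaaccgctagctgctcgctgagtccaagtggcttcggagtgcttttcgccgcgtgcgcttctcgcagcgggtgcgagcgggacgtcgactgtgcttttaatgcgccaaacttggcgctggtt
SdhC: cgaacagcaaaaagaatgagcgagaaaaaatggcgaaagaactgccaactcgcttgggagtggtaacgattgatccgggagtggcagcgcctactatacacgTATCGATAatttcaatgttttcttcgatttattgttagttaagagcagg
ND-MNLL: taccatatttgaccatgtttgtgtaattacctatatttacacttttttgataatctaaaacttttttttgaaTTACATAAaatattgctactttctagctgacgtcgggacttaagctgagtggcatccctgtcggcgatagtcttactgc

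Candidate summits were about as frequent near these genes as near other genes, but few of them were strong. Of the 88 genes, 48 (54.5%) had a candidate, where the share over all protein-coding genes was 53.1%. Strong summits lay near 11 of the 88 (12.5%), against 22.3% of all protein-coding genes, or 11 of the 48 with a candidate (22.9%), against 42.1% of all protein-coding genes with a candidate. The gap depended on the window: within 2000 bp the strong shares were 25% of the members, against 27.8% of all protein-coding genes, and 40% of those with a candidate, against 44.96%. The best summit of the 48 had a median signal of 112, against 150 over all protein-coding genes with a candidate, and a median rank of 10206, against 6547. One gene, ND-ASHI, lay within the first 1000 ranks, which is 2.08% of the 48, against 11.2% of all genes with a candidate. A further 13 genes ranked between 5220 and 10000, and 24 ranked below 10000. These 2 classes were not counted over all genes, so whether their counts are unusual is unknown. The shares above describe genes, which share promoters and are not replicates, so no test was made over them.

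**Figure D1:**
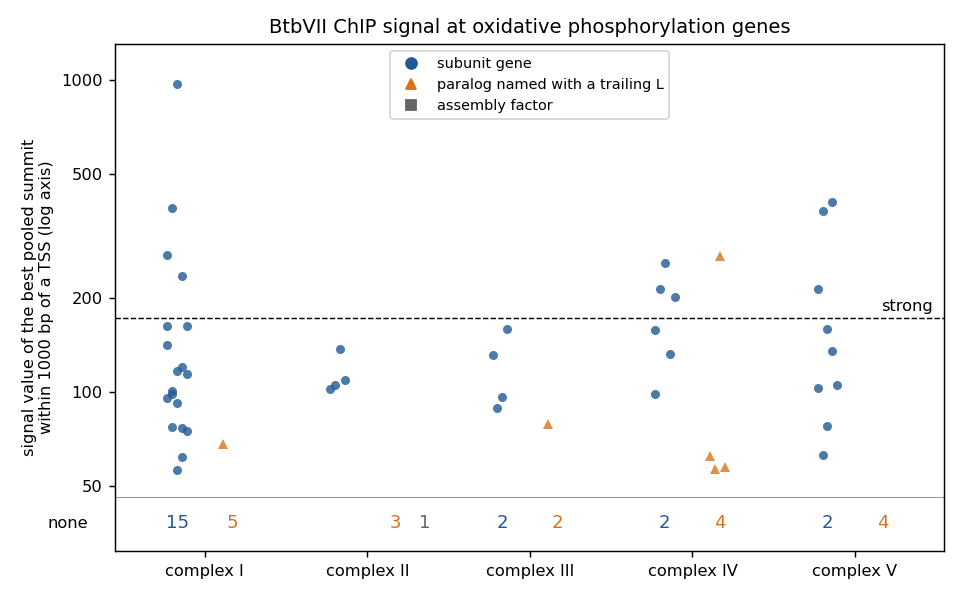
Signal of the best pooled summit within 1000 bp of a TSS (log axis) for each gene, by complex, with circles for subunit genes, triangles for L paralogs and a grey number for the assembly factor; the dashed line is the lowest strong signal, 172. The bottom row gives the number of genes with no candidate summit, and no gene of complexes II and III lies above the line.

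The replicate lists gave shares below those of all genes as well. With the 5219 regions of highest signal taken from each list, 9 of the 88 genes (10.2%) had such a region summit within 1000 bp of a TSS in replicate 1, against 22.1% of all protein-coding genes. In replicate 2 the count was 15 (17.0%), against 22.9%, and in replicate 3 it was also 15 (17.0%), against 22.0%. The mean was 14.8% ± 3.94 for the oxidative phosphorylation genes and 22.3% ± 0.501 for all protein-coding genes (SD, n = 3), and the 2 sets of values did not overlap. Replicate 1 was the lowest of the 3 for these genes, though not for all genes. The 63 subunit genes alone were at 12.7%, 22.2% and 20.6% in replicates 1, 2 and 3. They were thus far below all genes in replicate 1 only, and close to them in replicates 2 and 3. The 24 L paralogs were at 4.17%, 4.17% and 8.33%. In all 3 replicates together, 7 of the 88 (7.95%) had such a region, against 15.2% of all protein-coding genes.

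Set beside the genes for ribosomes, which also serve basic metabolism, the members had fewer strong summits than either group. Of the 88 members, 12.5% had a strong summit, against 24 of 73 mitochondrial ribosomal protein genes (32.9%) and 70 of 87 cytosolic ribosomal protein genes (80.5%). The median signal of the best summit was 112 for the members, against 169 for mitochondrial and 408 for cytosolic ribosomal protein genes. Both mitochondrial groups are nuclear genes whose products are imported into the organelle. The share with any candidate was 54.5% for the members and 65.8% for the mitochondrial ribosomal protein genes. The 63 subunit genes alone were level with the latter at 66.7%, while the 24 L paralogs were at 25%. For strong summits the subunit genes stayed lower, at 15.9%, and the paralogs were at 4.17%.

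**Figure D2:**
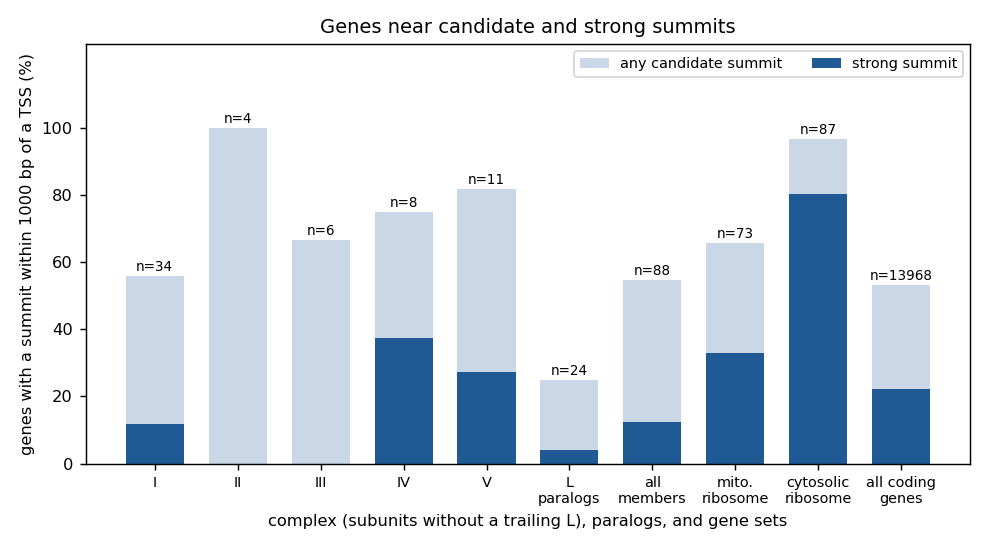
Share of genes (%) with any candidate summit (light bars) and with a strong summit (dark bars) within 1000 bp of a TSS, for the subunits of each complex, the L paralogs, all 88 members, both ribosomal protein groups and all protein-coding genes, with the number of genes above each bar. Strong shares were 37.5% for complex IV subunits and 0 for those of complexes II and III, and cytosolic ribosomal protein genes stood highest at 80.5%.

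The subunits, leaving the L paralogs aside, had candidates at 42 of 63 genes (66.7%) and strong summits at 10 (15.9%). Complex V had the highest share with a candidate among the complexes with more than 6 subunit genes, at 9 of 11 (81.8%), followed by complex IV at 6 of 8 (75%) and complex I at 19 of 34 (55.9%), where 53.1% of all protein-coding genes had one. Strong summits lay near 3 of the 8 complex IV subunits (37.5%), 3 of the 11 complex V subunits (27.3%) and 4 of the 34 complex I subunits (11.8%), against 22.3% of all protein-coding genes. Complex V was thus near the share of all genes, complex IV above it and complex I below it, on counts of 3 or 4 genes each. Over the replicates, the share of subunits with a region among the 5219 highest was 29.2% ± 19.1 for complex IV, 27.3% ± 9.09 for complex V and 15.7% ± 6.12 for complex I, against 22.3% ± 0.501 for all protein-coding genes (SD, n = 3). The ranges overlapped, so the order of the complexes was not larger than the spread between replicates. With summits required to be supported by both other replicates, the complex IV count, paralog included, was 1 without replicate 1, 1 without replicate 2 and 2 without replicate 3, against 4 in the pooled data.

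Complex I, the NADH dehydrogenase, held the strongest member. ND-ASHI, an accessory subunit gene, had a summit 256 bp upstream of its TSS (X, 6679240 to 6679497) with a signal of 967 and pooled rank 193. The summit lay outside ND-ASHI, in an intron of another annotated gene. Its ranks of 203, 193 and 189 in replicates 1, 2 and 3 were the closest together of the 11 strong members. The same summit lay 266 bp upstream of Fum1, the gene of the tricarboxylic acid cycle enzyme fumarase, which starts 522 bp away on the opposite strand.

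Another accessory subunit gene, ND-MWFE, had a summit 150 bp upstream (2R, 13158291 to 13158740) whose signal was 387, with replicate ranks of 2057, 1015 and 2152. It was nearer to the divergent neighbour TppII, a peptidase gene, at 71 bp. ND-51, whose product is the core subunit that binds NADH, had a signal of 274 at 121 bp upstream (2L, 6062653 to 6063102), with ranks of 4285, 2116 and 2427. Here too the neighbour, CG13994, was slightly nearer, at 111 bp. ND-SGDH, an accessory subunit gene, had its summit 9 bp into the 5′ UTR (3L, 12138350 to 12138799), at signal 234, and ranked 7014, 2913 and 2828, so replicate 1 placed it outside its highest 5219.

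The members just below the strong minimum were also of complex I. ND-MNLL had a signal of 163.2 at 83 bp upstream, with replicate ranks of 7651, 4780 and 14499, and ND-B22 had 162.6 at 30 bp upstream, with ranks of 6717, 7359 and 5185. On the other side of it, the lowest strong member was COX7B at 202. The remaining complex I genes with a candidate, among them ND-75 for the largest core subunit (98.9, 933 bp upstream and nearer to CG1632), lay lower, down to ND-PDSW at 56.4.

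**Figure D3:**
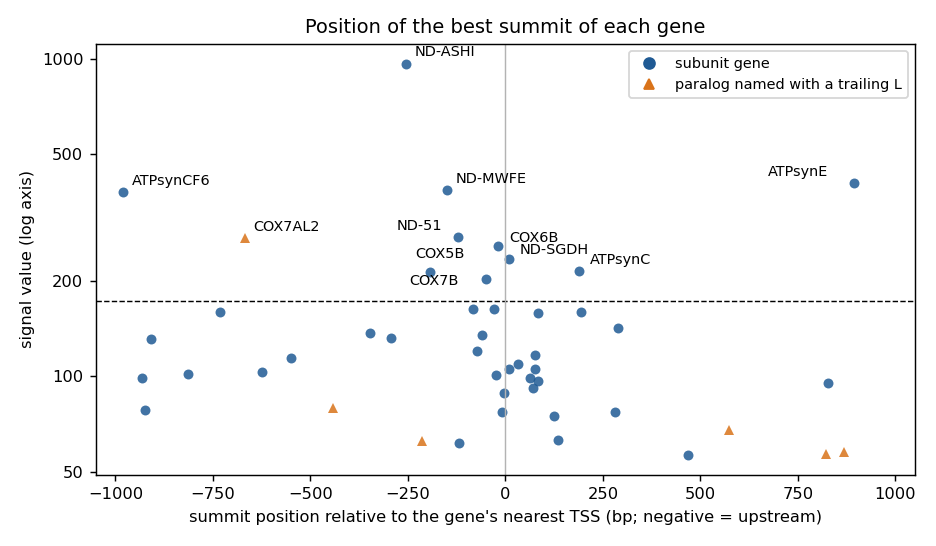
Position of the best summit relative to the nearest TSS of the gene (bp, negative is upstream) against its signal (log axis) for the 48 genes with a candidate, with the strong genes named and the dashed line at the lowest strong signal, 172. ATPsynE and ATPsynCF6 lie near the edges of the window at 895 bp downstream and 980 bp upstream, while 27 of the 48 summits lie within 250 bp.

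All 4 subunit genes of complex II, succinate dehydrogenase, had a candidate and none a strong summit, against 53.1% and 22.3% of all protein-coding genes. SdhC, a membrane anchor, was highest with a signal of 137 at 346 bp upstream, nearer to the divergent Tctp at 52 bp, and ranked 9960 and 7742 in replicates 1 and 2 with no region at that summit in replicate 3. SdhD, the other anchor, had 109 in its 5′ UTR, 32 bp downstream, with ranks of 7930, 17341 and 23954. SdhB, the iron-sulfur subunit, had 105 at 76 bp downstream, with ranks of 28319, 10925 and 7804. SdhA, the flavoprotein, had 102 at 813 bp upstream, where the gene cer was 12 bp away, with ranks of 7164 and 7735 in replicates 1 and 3 and no region there in replicate 2. In none of the 3 replicate lists did a complex II subunit have a region among the 5219 highest within the window. The shares over all protein-coding genes were 22.1%, 22.9% and 22.0% in replicates 1, 2 and 3. With 4 genes, a count of 0 was not set apart from these shares by any test.

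Of the 6 subunit genes of complex III, 4 had a candidate and none a strong summit, against 53.1% and 22.3% of all protein-coding genes. UQCR-Q, a small subunit, was highest at 159.5, 193 bp downstream and 22 bp from CG46525, and its replicates disagreed: rank 3240 in replicate 2, 12152 in replicate 1 and no region in replicate 3. UQCR-14 had 131 at 909 bp upstream, with ranks of 5581, 9566 and 7151. UQCR-C2, a core subunit, had 96.3 at 83 bp downstream, and UQCR-6.4 had 88.8 at 4 bp upstream, where only replicate 2 held the summit in a region (rank 11462). The other core subunit gene, UQCR-C1, and UQCR-11 had no candidate.

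Complex IV, cytochrome c oxidase, had 3 strong subunit genes. COX6B had a signal of 258 at 19 bp upstream (X, 19744129 to 19744578), ranked 4232, 2618 and 1727, and shared the window with CG18809, CG33932 and Rpp20. A TSS of CG18809 was equally near, at 19 bp. COX5B had 213 at 193 bp upstream (2L, 6557382 to 6557831) and ranked 3010, 8014 and 5316, so only replicate 1 placed it among the highest 5219. The neighbour IFT52, which starts 298 bp away on the opposite strand, was nearer at 105 bp. COX7B had 202 at 51 bp upstream (3L, 17425201 to 17425650), the lowest strong signal of the members, and ranked 6399, 3493 and 9859, so only replicate 2 did. COX5A, just below the strong minimum at 158, lay 83 bp downstream of its TSS and 22 bp from a TSS of glo.

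In complex V, ATP synthase, the 3 strong genes were spread over the window. ATPsynE, for a membrane subunit, had a signal of 407 at 895 bp downstream, past the end of the gene (3R, 14327738 to 14328187), with ranks of 1412, 1100 and 871. It was in the window of only 1 of the gene's 2 TSSs, and with the most 5′ TSS alone ATPsynE had no strong summit and complex V had 2 strong genes. That summit was 88 bp from spn-B, a DNA repair gene. ATPsynCF6, for a peripheral stalk subunit, had 380 at 980 bp upstream (3R, 23356819 to 23357268), with ranks of 1007, 2209 and 1420, and was nearer to Sec13 at 481 bp. ATPsynC, for the proton-carrying rotor ring, had 214 in its own 5′ UTR, 188 bp downstream (3R, 31219146 to 31219595), with ranks of 4382, 3445 and 2634. It was the lowest strong gene of the complex and the only one of the 3 whose summit was nearest to the gene's own TSS. Below them were ATPsyndelta at 159 and ATPsyngamma, for the central shaft, at 135.

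**Figure D4:**
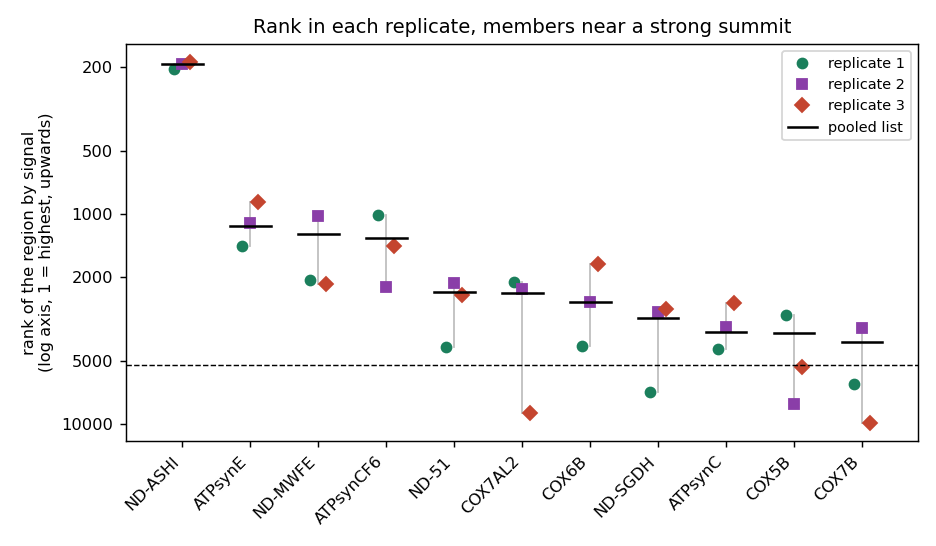
Rank by signal (log axis, 1 at the top) of the region that holds each strong member's pooled summit, in replicates 1, 2 and 3 (symbols) and in the pooled list (black bars); the dashed line is rank 5219. ND-ASHI ranked between 189 and 203 in the replicates, while COX5B and COX7B each had a single replicate above the line.

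Support by replicates was like that of strong summits elsewhere. Of the 11 strong members, 7 (63.6%) lay in a region among the 5219 highest of all 3 replicates, against 62.4% of all protein-coding genes near a strong summit. ND-SGDH and COX7AL2 were supported by 2 replicates, and COX5B and COX7B by 1. Among all 48 genes with a candidate, 26 (54.2%) had the summit in a region of every replicate list, against 63.8% of all protein-coding genes with a candidate. The pooled list was made from the same replicates, so part of this support is built in.

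The L paralogs had few summits of either kind. Of 24 paralogs, 6 (25%) had a candidate and 1 (4.17%) a strong summit, against 16 (76.2%) and 4 (19.0%) of their 21 parent genes, which include levy, cype and sun under their own names. Over all protein-coding genes the shares were 53.1% and 22.3%, so the parents' strong share was close to that of all genes, and the paralogs were lower in both. The gene's own TSS was nearest to the summit at 0 of the 4 strong parents and at the 1 strong paralog. Among all protein-coding genes near a strong summit it was nearest in 73.3%, so the strong parents are not assigned to their own promoters here. In the replicate lists, 1, 1 and 2 of the 24 paralogs had a region among the 5219 highest in replicates 1, 2 and 3. For the 63 subunit genes the counts were 8, 14 and 13. The shares of paralogs and subunits did not overlap (5.56% ± 2.41 and 18.5% ± 5.10, SD, n = 3), against 22.3% ± 0.501 for all protein-coding genes. The subunit shares of 22.2% and 20.6% in replicates 2 and 3 were close to the 22.9% and 22.0% of all protein-coding genes. Of the 24 pairs, 13 had a candidate at the parent alone, 6 at both, 5 at neither and 0 at the paralog alone.

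COX7AL2 was the exception among the paralogs, with 6 candidate summits in its windows. Its best summit had a signal of 273 (2L, 2193454 to 2193903), in an intron within the gene's own annotated span and 669 bp upstream of the nearest of its 3 TSSs, with ranks of 2109, 2271 and 8791. Its parent COX7A had 132, nearer to the divergent Arl2. With 1 TSS per gene, the most 5′ start, COX7AL2 was no longer near a strong summit. It also lost the call without replicate 1 and without replicate 2, which left 0 strong paralogs.

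In the other pairs with a candidate at both, the parent had the higher signal. UQCR-6.4L had 79.3, against 88.8 for UQCR-6.4, and ND-B14.5AL had 68.0, against 74.9 for ND-B14.5A; no replicate list held the summit of ND-B14.5AL in a region. COX5BL had 62.4, against 213 for COX5B, COX7CL had 57.6, against 98.5 for COX7C, and COX7AL had 56.8, against 132 for COX7A. These last 3 paralogs lie close to their parents on the same chromosome arm, with gaps of 122 bp, 281 bp and 2625 bp. The summit of COX5BL, 213 bp upstream of its TSS, fell in a 3′ UTR.

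**Figure D5:**
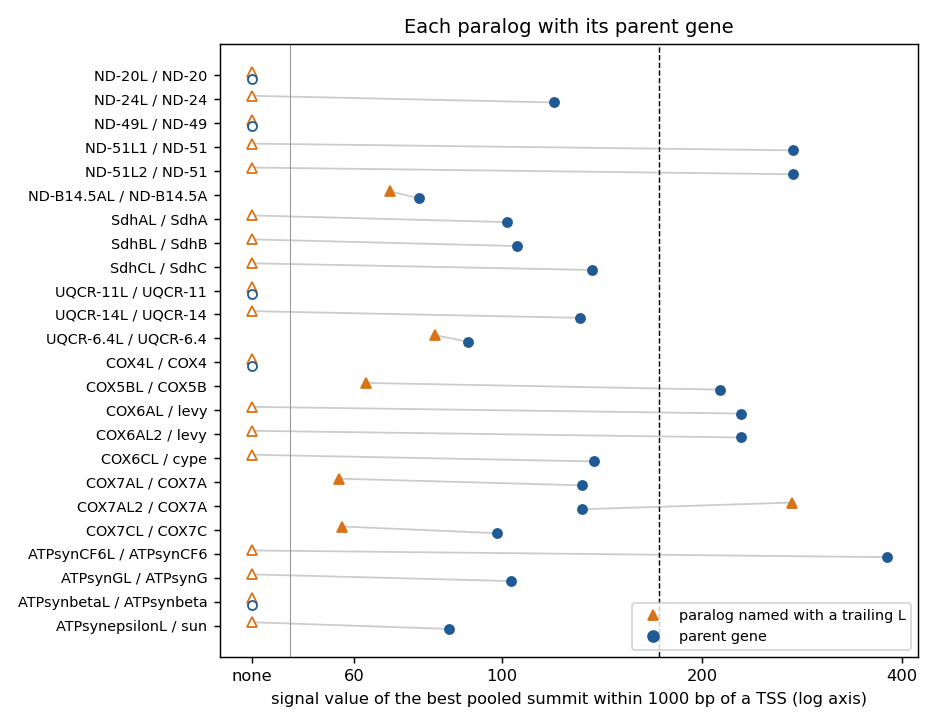
Signal of the best pooled summit within 1000 bp of a TSS (log axis) for each of the 24 L paralogs (triangles) and its parent gene (circles), with open symbols at the left for genes without a candidate and the dashed line at the lowest strong signal, 172. COX7AL2 at 273 is the single triangle to the right of its parent, COX7A at 132.

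The pairs without a candidate at the paralog included parents with strong summits. ND-51L1 and ND-51L2 had none, against 274 for ND-51; COX6AL and COX6AL2 had none, against 229 for levy; and ATPsynCF6L had none, against 380 for ATPsynCF6. UQCR-14L, SdhCL, cype's paralog COX6CL, ND-24L, SdhBL, ATPsynGL, SdhAL and ATPsynepsilonL also had none, against parent signals between 137 (cype, SdhC) and 83.3 (sun). Neither gene had a candidate for ND-20L and ND-20, ND-49L and ND-49, UQCR-11L and UQCR-11, COX4L and COX4, and ATPsynbetaL and ATPsynbeta.

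The 40 genes without a candidate were 21 subunit genes, 18 paralogs and Sdhaf3. In complex I the subunits were ND-18, ND-19, ND-20, ND-23, ND-30, ND-42, ND-49, ND-ACP, ND-AGGG, ND-B14, ND-B15, ND-B17.2, ND-B18, ND-B8 and ND-MLRQ. In the other complexes they were UQCR-11, UQCR-C1, COX4, COX8, ATPsynB and ATPsynbeta, the last 2 for a stalk subunit and the catalytic subunit of ATP synthase. A median of 4461 bp separated the 40 from the nearest pooled summit. UQCR-11 (767860 bp), ND-AGGG (623405 bp), ND-MLRQ (191842 bp) and COX4L (63221 bp) were the 4 farther than 50000 bp from one. A gene without a pooled candidate could still have a region in a replicate list, and 18 of the 40 did. Only ND-B17.2 had one in all 3, with ranks of 14252, 6619 and 11180. ATPsynbeta (rank 1134), ND-30 (2007) and ND-42 (2351) in replicate 3 and COX8 (4746) in replicate 2 had a region among the highest 5219 of a single replicate. The distances and replicate counts of the 40 were not computed for other genes without a candidate, so whether they are unusual is unknown. ND-49 and ATPsynbeta are the 2 members on chromosome 4, where 13 of 80 protein-coding genes had a strong summit.

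Most strong members had a neighbour that starts close by in the opposite direction. An opposite-strand protein-coding TSS lay within 1000 bp upstream of 41 of the 88 members (46.6%), against 35.2% of all protein-coding genes. Among the strong members it was 9 of 11 (81.8%), against 53.4% of all protein-coding genes near a strong summit. The summit lay between both starts in 6 of these 9 (66.7%), against 47.8% of the 1666 such genes among all protein-coding genes, and outside that interval at ND-SGDH, ATPsynCF6 and ATPsynE. Strong summits lay near 9 of the 41 members with such a neighbour (22.0%) and near 2 of the 47 without (4.26%), where the shares over all protein-coding genes were 33.9% and 16.0%. The members were thus below all genes in both classes. A divergent neighbour was present at 4 of the 24 paralogs (16.7%) and at 37 of the 63 subunits (58.7%).

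The member's own TSS was the nearest one in 6 of the 11 strong cases (54.5%), against 73.3% of all protein-coding genes near a strong summit. Counting only summits nearest to the gene itself, a setting chosen after the data were seen, 6 members stayed near a strong summit: ND-ASHI, ND-SGDH, COX6B, COX7B, COX7AL2 and ATPsynC. Ties were counted as the gene's own, for members and for all genes, and COX6B was such a tie with CG18809. Of the 11 strong summits, 5 were intergenic, 4 in introns and 2 in 5′ UTRs. The intron lay within the member itself at COX7AL2, and in another annotated gene at ND-ASHI, ND-MWFE and ATPsynCF6. Over the 48 best summits, 27 (56.2%) were upstream of the TSS, against 69.1% for all protein-coding genes, and the median distance was 190.5 bp, against 210 bp.

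Promoters were searched on both strands from 250 bases before to 50 after the most 5′ TSS. The core of Ohler motif 1, a common element of housekeeping promoters in flies (GGTCACAC), was present in 15 of the 63 subunit promoters (23.8%) and 1 of the 24 paralog promoters (4.17%), against 7.69% of all protein-coding promoters. The DNA replication-related element bound by Dref (DRE, TATCGATA) was in 9 subunit promoters (14.3%) and 0 paralog promoters, against 9.36%. The core of the nuclear respiratory gene (NRG) element described in flies (TTACATAA, TTACGTAA, TTATATAA or TTATGTAA) was in 5 (7.94%) and 0, against 5.18%. TATAAA was in 39 subunit promoters (61.9%) and 9 paralog promoters (37.5%), against 45.8%. Mean GC content was 34.8% ± 6.63 for subunit, 35.8% ± 6.13 for paralog and 39.0% ± 7.77 for all promoters (SD over promoters).

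The GA repeat word GAGAGA, which the BTB protein GAGA factor binds, was in 2 subunit promoters (3.17%) and 4 paralog promoters (16.7%), against 12.3% of all protein-coding promoters. In 201-base windows centred on the summit it was in 0 of the 11 strong members, against 13.2% of the 2281 distinct strong summits near any protein-coding gene. Over all 48 members with a candidate it was in 1 window (2.08%), that of ATPsynG, against 11.3% of 5754. The NRG words were in 5 of the 48 windows (10.4%), against 3.53%, and GGTCACAC in 4 (8.33%), against 2.66%. The letters TGCGCA (resembling the mammalian NRF-1 site) were in 0 of 48, against 5.81%, and the E-box CACGTG in 1, against 2.75%. Mean GC content in the strong windows was 39.0% ± 10.04 for the members and 38.03% ± 8.65 for all genes. These matches are letters in a window and were not tested as binding sites.

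Of all protein-coding genes, 53.1% had a candidate and 22.3% a strong summit. Genes that work with the complexes under other names had strong shares near or above that of all genes. The share with a candidate was lower than over all genes only for mitochondrial gene expression and nuclear regulators, at 44.4%. Among the subunit genes with other names, 6 of 8 had a candidate and 2 (25%) a strong summit, near the share of all genes: blw, for the alpha subunit of ATP synthase (signal 336), and levy, for a complex IV subunit (229, nearer to wmd). Of 5 genes for electron carriers and ubiquinone-linked dehydrogenases, all had a candidate and 4 (80%) a strong summit, led by Cyt-c-d (880.5 at 372 bp downstream, replicate ranks 192, 294 and 289, nearer to CG31808), the cytochrome c gene that functions in the male germ line, and Cyt-c-p (343), the other cytochrome c gene. Of 7 assembly and quality control genes, 5 had a candidate and 3 (42.9%) a strong summit, led by CIA30, a complex I assembly factor (906), and the protease gene Afg3l2 (220.5). In the tricarboxylic acid cycle, 9 of 11 genes had a candidate and 5 (45.5%) a strong summit, led by Fum1, through the summit it shares with ND-ASHI and that is nearer to ND-ASHI, and Idh3g, for an isocitrate dehydrogenase subunit (885). Of 9 genes for mitochondrial gene expression and nuclear regulators, 4 had a candidate and 2 (22.2%) a strong summit, again near the share of all genes. These were Dref (787), where the ribosomal protein gene RpL13 was nearer, and mtTFB1 (204), where CG11658 was nearer, so neither was nearest to the gene itself. The lists are short, and no test was made over them.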

How the data were processed

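Region lists in narrowPeak format were deposited by the authors on the dm6 and dm3 builds, and the dm6 lists were used: 1 for each of the 3 replicates, 1 for the pooled replicates and 1 optimal set that passed an irreproducible discovery rate threshold. The values used are the signal of each region from the authors' peak calling, compared only within a list, and the deposited −log10 q-value was not used to rank. The lists come from an aligner and a peak caller, with versions and filters, not given in the sources used here. Depth is unknown, so no counting interval is given.

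Summits were placed with Python 3.11.15 and numpy 2.4.6 against Ensembl release 115 gene models (BDGP6.54, 35612 transcripts, 18277 genes on the arms) and the Release 6 sequence, whose chromosome lengths hold every region. A replicate supported a strong summit when a region among its 5219 highest covered it. A divergent neighbour is a protein-coding gene on the other strand with its TSS within 1000 bp upstream. The steps were checked on simulated lists. Parent genes were paired with L paralogs by name, with levy, cype and sun as the parents of COX6AL and COX6AL2, COX6CL and ATPsynepsilonL.

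The genes, the lists and the motifs were chosen with earlier results of these data known. Named are all subunits of complexes II and III, in the larger complexes the 5 of highest signal and the lowest strong one, the 2 just below the strong minimum, every L paralog with its parent, every gene without a candidate, and the 2 highest of each other pathway list. ND-75, ND-PDSW and the genes with a region high in a single replicate were named after their values were seen. Alternatives were the window (500 and 2000 bp), 1 TSS per gene, the 2609 strongest summits, support by all or by pairs of replicates, region overlap by at least 1 bp, added subunit genes under other names and, chosen after seeing the data, summits nearest to the gene itself.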

Additional observations from a re-analysis of the deposited data

How the results depend on the processing

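The share of members near a strong summit was below that of all protein-coding genes in the main setting and in each of the 11 alternatives (12 of 12), and so was the share among genes with a candidate. The gap was smallest with a window of 2000 bp, at 25% of members against 27.8% of all genes, or 40% against 44.96% of those with a candidate. Of 171 values computed, 124 stayed within the limits set for no change (1.5 times for counts) and 47 moved. The tally holds counts and shares of the same genes, and shares of all genes that adding subunit genes could not change. It is therefore not a measure of stability.

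With 2000 bp, strong summits lay near 22 members (18 subunits and 4 paralogs), with 8 in complex I, 1 in complex II, 2 in complex III and 5 in complex V; 10 paralogs had a candidate and the median distance was 813 bp. With 500 bp, complex V had 1 and the paralogs 0, 3 paralogs had a candidate, and the median distance was 115.5 bp; ATPsynE, ATPsynCF6 and COX7AL2 were lost. With 1 TSS per gene the paralogs had 0, and ATPsynE and COX7AL2 were lost. With the 2609 strongest summits there were 6 members (6.82%, all genes 13.1%), made up of 5 subunits and 1 paralog. That paralog, COX7AL2, was the only complex IV gene left, while COX6B, at pooled rank 2610, fell just outside. At this setting 1 paralog had a candidate of the upper 15000. With support in all 3 replicates there were 7 (7.95%, all genes 14.2%), with 1 in complex IV, 0 paralogs, 28 members and 1 paralog with a candidate. Without each replicate in turn there were 7 to 8 members (7.95% to 9.09%), 1 to 2 in complex IV, 0 to 1 strong paralogs and 1 to 2 paralogs with a candidate. With region overlap, complex III had 1 and the paralogs 2. With summits nearest to the gene itself there were 6 (6.82%), 5 of them subunits, with 2 in complex I and 1 in complex V, at a median distance of 83 bp. The cause was not tested.

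No paired analysis was possible because there is 1 group. Strong and weaker candidates are separated by signal alone, depth and control reads were not used here, and the lists say nothing of binding below their lowest signal.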
